A study of Mus musculus with 9 samples.

Results

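Basement membranes are thin sheets of extracellular matrix that wrap each skeletal muscle fiber, capillary, and nerve. Their core is a network of type IV collagen and a network of laminin, which is a trimer of an alpha, a beta, and a gamma chain, and nidogen and perlecan tie the networks together. In muscle, laminin outside the fiber binds dystroglycan and integrins in the fiber membrane, and dystroglycan connects to dystrophin, the protein that *mdx* mice lack. The mRNAs of 10 genes that build this sheet were followed here in sorted myeloid cells of dystrophic muscle. The genes were taken by name from the 50559 genes in the deposited counts. They are the type IV collagen chain genes *Col4a1* and *Col4a2*, the type XV collagen gene *Col15a1*, the laminin chain genes *Lama2*, *Lama4*, *Lamb1*, and *Lamc1*, the nidogen gene *Nid1*, the perlecan gene *Hspg2*, and *Pxdn*, which encodes the peroxidase that crosslinks type IV collagen. All 10 passed the low-count filter, as did 16618 genes in all. The genes were chosen by their measured CPM and log2 fold changes across the treatment groups, which were already known, so their levels and differences are given as a description, with no test.

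All mice carried the *mdx* strain label, which means that no dystrophin-sufficient group was sequenced, and all were 4.5 weeks old. They drank vehicle, a sucralose solution, alone or with the mineralocorticoid receptor antagonist spironolactone or the glucocorticoid prednisolone for 7 days, so that the controls also received the vehicle. Cells were dissociated from the quadriceps and sorted as CD45+CD11b+, without a stain that tells live from dead cells. Each group has 3 libraries, and each library pools 3 pairs of quadriceps, so that the spread between libraries is the spread between pools. Males and females were used in every group, but how they were divided over the pools is not given in the sources used here. Between 31469815 and 32943512 counts per library fell on genes.

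The cell type label was checked first. All 8 myeloid markers were detected in every library, and their summed level was 16289.2 to 19400.4 CPM (counts scaled to the TMM-normalized library size). Most of this sum was *Lyz2*, at 8203.6 to 12230.7 CPM. *Itgam*, which encodes the sorted CD11b, was at 1127.4 to 1321.6 CPM in vehicle, at 977.9 to 1170.3 CPM in spironolactone, and at 1281.4 to 1486.3 CPM in prednisolone libraries. It was lower in spironolactone than in prednisolone (log2 fold change −0.43 ± 0.11, edgeR adjusted p = 0.0353) and did not pass against vehicle (−0.25 ± 0.11 for spironolactone, edgeR adjusted p = 0.508). The part of this difference in the levels of the basement membrane genes was not tested. The 10 basement membrane genes summed to 281.3 to 692.3 CPM. Basement membranes are chiefly the product of endothelial cells, pericytes, fibro-adipogenic cells, and muscle fibers, and markers of all of these were present. The 12 endothelial markers summed to 104.8 to 283.6 CPM, and the 10 fibro-adipogenic markers to 642.1 to 1228.0 CPM, which was more than the basement membrane genes in every library. Most of the fibro-adipogenic sum was *Col1a1*, *Col1a2*, and *Col3a1*, with vehicle means of 276.6, 188.4, and 275.5 CPM. Each other marker of this list had a vehicle mean of at most 24.3 CPM. No endothelial, fibro-adipogenic, or pericyte and smooth muscle marker was at 0 in any library. Of the 9 myofiber markers, *Mylpf* was at 0.0 CPM in vehicle library 3 and prednisolone library 1 and did not pass the low-count filter. In such bulk samples, fewer cells of a type and less RNA per cell cannot be told apart, and which cells held the basement membrane mRNAs was not tested.

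The sequence before the canonical transcript start is shown for 4 of the genes. No annotated exon of any gene lies in these stretches, and the genes differ in how their levels were ordered over the groups. *Col15a1* and *Hspg2* were higher in every spironolactone library than in all 6 others, *Lama4* was higher in every spironolactone library than in every vehicle library, and *Lamc1* was highest in prednisolone. Each run is the 250 bases before the annotated start of the canonical transcript on GRCm39, 5′ to 3′ on the strand of the gene, with motif matches in capitals.
Col15a1: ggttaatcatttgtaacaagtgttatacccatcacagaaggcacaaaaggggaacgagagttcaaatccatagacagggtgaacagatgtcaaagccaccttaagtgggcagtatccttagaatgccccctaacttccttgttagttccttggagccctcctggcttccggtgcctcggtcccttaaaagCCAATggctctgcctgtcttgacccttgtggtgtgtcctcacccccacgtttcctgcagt
Hspg2: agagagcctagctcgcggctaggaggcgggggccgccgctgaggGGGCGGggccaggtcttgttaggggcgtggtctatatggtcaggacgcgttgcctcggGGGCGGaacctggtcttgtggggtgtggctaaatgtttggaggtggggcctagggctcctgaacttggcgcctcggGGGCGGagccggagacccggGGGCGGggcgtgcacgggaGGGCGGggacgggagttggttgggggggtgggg
Lama4: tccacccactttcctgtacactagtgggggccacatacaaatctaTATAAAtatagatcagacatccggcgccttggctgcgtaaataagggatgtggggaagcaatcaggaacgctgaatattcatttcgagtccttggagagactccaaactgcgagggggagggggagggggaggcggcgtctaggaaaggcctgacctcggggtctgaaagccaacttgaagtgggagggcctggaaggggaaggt
Lamc1: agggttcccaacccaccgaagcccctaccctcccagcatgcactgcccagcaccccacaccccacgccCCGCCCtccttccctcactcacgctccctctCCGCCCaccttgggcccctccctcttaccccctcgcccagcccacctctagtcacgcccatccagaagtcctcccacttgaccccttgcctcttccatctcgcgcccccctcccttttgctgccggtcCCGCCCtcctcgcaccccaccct
These lie at chr4:47207332-47207581 (+) for *Col15a1*, chr4:137195829-137196078 (+) for *Hspg2*, chr10:38841261-38841510 (+) for *Lama4*, and chr1:153208775-153209024 (−) for *Lamc1*. The motifs were searched on both strands in the windows of all 10 genes and of 21769 protein-coding genes. Unlike the windows shown, those of *Col4a1*, *Col4a2*, *Lama2*, *Lamb1*, *Nid1*, and *Pxdn* hold bases of an annotated exon. For *Col4a1* and *Lamb1*, all 250 bases do. The *Lama4* window holds no exon bases but lies within the annotated gene, which starts at chr10:38841141. It is thus upstream of the canonical transcript and not of the whole gene. The GC box GGGCGG was found 5 times upstream of *Hspg2* and 3 times upstream of *Lamc1*. It was present in 5 of the 10 windows (*Lama2*, *Lamb1*, *Lamc1*, *Nid1*, and *Hspg2*), against 36.3% of all windows. CCAAT was found upstream of *Col15a1* and was also present in 5 of the 10 windows, against 36.5% of all. TATAAA was found in 1 of the 10 (*Lama4*), against 11.9%. The AP-1 motif TGANTCA was in none of the 10 windows, against 6.17% of all. The mineralocorticoid and glucocorticoid receptors recognize AGAACA followed, after any 3 bases, by its reverse complement, and this palindrome was in 0 of the 21769 windows. The hexamer AGAACA alone, which is contained in the palindrome, was in 2 of the 10 windows (*Lama2* and *Pxdn*), against 14.3% of all. A match is a description of letters in a window and not a binding site.

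In vehicle libraries, levels differed widely between the genes on the TPM scale, which divides counts by the summed exon length. *Col4a1* was the most abundant at 41.9 ± 7.46 TPM (SD, n = 3), higher than 77.9% of the genes tested. It was followed by *Lamc1* (30.3 ± 1.31 TPM) and *Col4a2* (27.7 ± 5.73 TPM), which overlapped between libraries. *Col15a1* (18.1 TPM) and *Hspg2* (17.0 TPM) came next and also overlapped, and *Nid1* was at 11.7 TPM. *Lamb1* (4.18 TPM) and *Pxdn* (3.56 TPM) overlapped, as did the laminin alpha chain genes *Lama4* (1.76 TPM) and *Lama2* (1.47 TPM), which were the least abundant. The least abundant gene still had 144 to 329 counts in a library.

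Type IV collagen mRNA was about doubled in spironolactone libraries relative to vehicle and was near the vehicle level in prednisolone libraries. The alpha 1 and alpha 2 chains assemble in one trimer, and their genes lie head to head on chromosome 8. *Col4a1* (8:11248423-11362826, − strand) and *Col4a2* (8:11362471-11499287, + strand) have canonical transcript starts 317 bases apart, and the transcripts share 318 bases on opposite strands. *Col4a1* was at 54.2, 84.4, and 75.4 CPM in vehicle, 177.0, 105.6, and 144.4 CPM in spironolactone, and 88.4, 72.7, and 68.5 CPM in prednisolone libraries. All 3 spironolactone libraries were above the 6 others, and vehicle and prednisolone overlapped. In log2 units, the difference was 1.0 ± 0.20 (SE, edgeR) for spironolactone against vehicle, 0.10 ± 0.20 for prednisolone against vehicle, and 0.90 ± 0.20 for spironolactone against prednisolone.

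*Col4a2* had the same order of libraries by group. It was at 32.4, 52.6, and 51.1 CPM in vehicle, at 121.2, 71.0, and 96.9 CPM in spironolactone, and at 61.1, 49.0, and 46.2 CPM in prednisolone libraries. The 3 spironolactone libraries were again the highest of all 9. Its log2 fold change against vehicle was 1.09 ± 0.23 for spironolactone and 0.20 ± 0.23 for prednisolone. The ratio of *Col4a1* to *Col4a2* on the TPM scale stayed between 1.39 and 1.61 in the 9 libraries, with means of 1.53 in vehicle, 1.42 in spironolactone, and 1.42 in prednisolone, while the level of each chain gene moved by over 3-fold between the lowest and the highest library.

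*Pxdn*, whose product forms the crosslinks between type IV collagen trimers, followed the collagen genes. It was at 7.82, 11.7, and 10.9 CPM in vehicle, at 26.9, 14.5, and 18.3 CPM in spironolactone, and at 10.2, 9.78, and 10.9 CPM in prednisolone libraries. The spironolactone libraries lay above the 6 others, and the other groups overlapped. Its difference in log2 units was 0.98 ± 0.21 for spironolactone against vehicle, 0.02 ± 0.21 for prednisolone against vehicle, and 0.95 ± 0.21 for spironolactone against prednisolone.

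Type XV collagen, found where basement membranes meet the fibrous matrix around muscle fibers and capillaries, had the smallest SE of the collagen genes. *Col15a1* (4:47207582-47313179, + strand) was at 25.3, 31.0, and 29.3 CPM in vehicle, at 52.7, 42.5, and 47.9 CPM in spironolactone, and at 26.7, 25.1, and 24.5 CPM in prednisolone libraries. The lowest spironolactone library was well above the highest of the 6 others. Against vehicle, the log2 fold change was 0.74 ± 0.11 for spironolactone and −0.16 ± 0.11 for prednisolone, and between the drugs it was 0.91 ± 0.11, higher in spironolactone. All of the 10 genes but *Pxdn* overlap an annotated gene on the opposite strand (for *Col15a1* the predicted genes Gm12426 and Gm52732, and for *Lamb1* the coding gene Dld), and the strand setting of the counting is not given in the sources used here, so that reads from overlapping exons cannot be told apart.

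**Figure D1:**
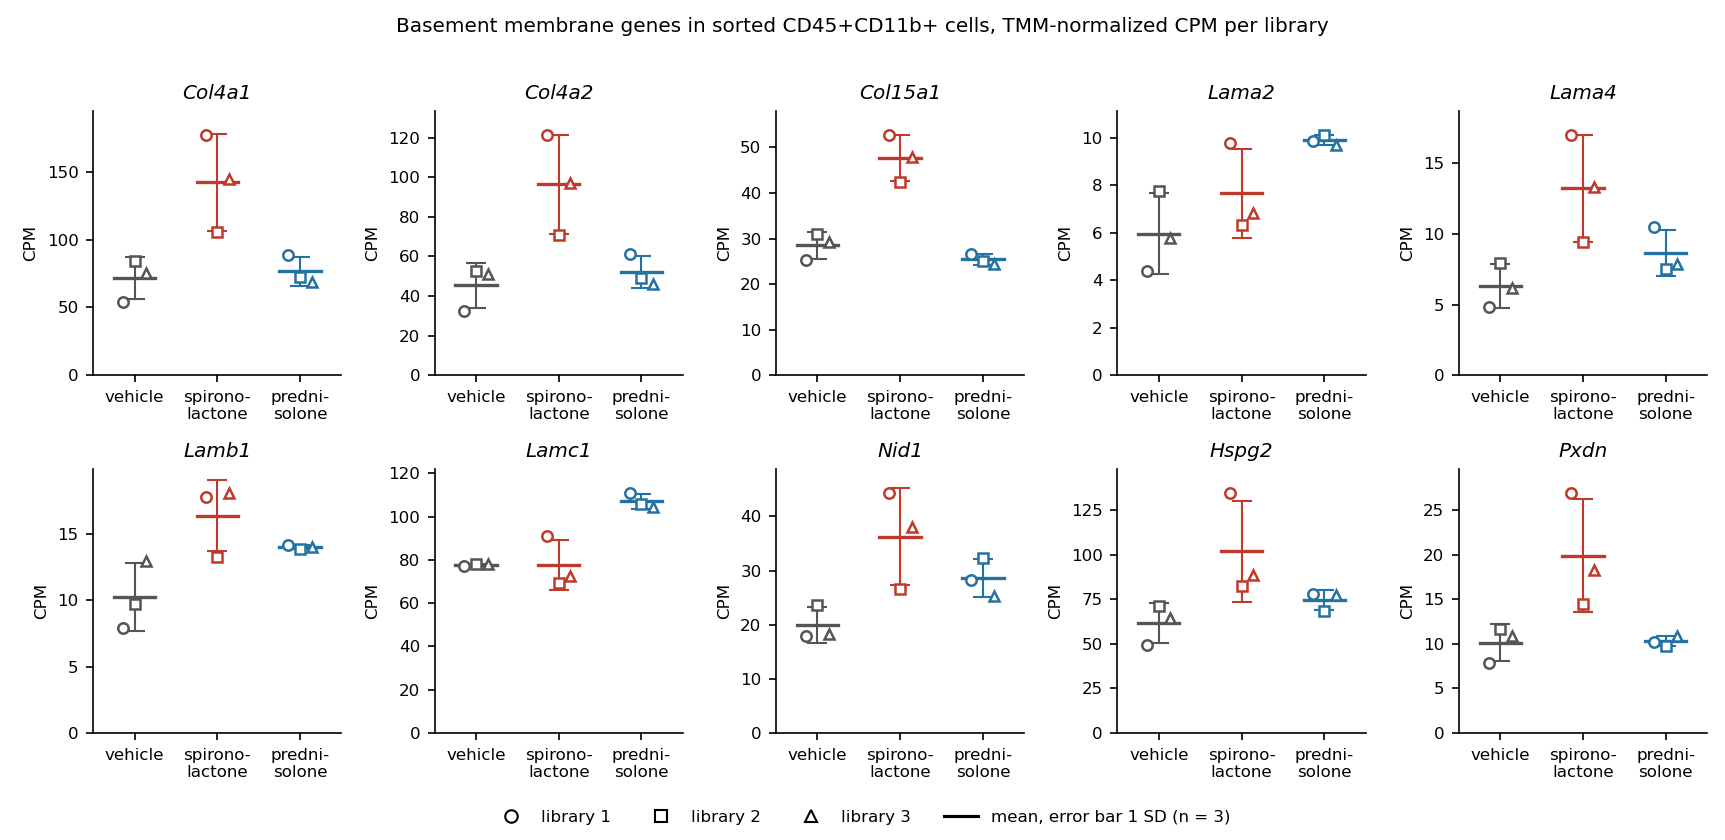
TMM-normalized CPM (linear axis from 0) of the 10 basement membrane genes in each of the 9 libraries, with the mean (line) and SD (bar) of each group of 3. For *Col4a1*, *Col4a2*, *Col15a1*, *Hspg2*, and *Pxdn* the spironolactone points lie above the 6 others, whereas *Lamc1* and *Lama2* have their highest means in prednisolone.

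The laminin chains did not share an order. *Lamc1*, the gamma chain of most laminins of muscle and vessels, was at 77.1, 78.2, and 78.0 CPM in vehicle, at 91.0, 69.5, and 72.6 CPM in spironolactone, and at 110.9, 105.7, and 104.6 CPM in prednisolone libraries. All prednisolone libraries were above all 6 others. Spironolactone differed from vehicle by a log2 fold change of 0.00 ± 0.10, prednisolone from vehicle by 0.46 ± 0.10, and spironolactone from prednisolone by −0.46 ± 0.10.

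*Lama2* encodes the alpha chain of the laminin that surrounds muscle fibers, and its loss causes a congenital muscular dystrophy. It was at 4.38, 7.74, and 5.76 CPM in vehicle, at 9.78, 6.32, and 6.84 CPM in spironolactone, and at 9.87, 10.1, and 9.68 CPM in prednisolone libraries. The prednisolone libraries were above all vehicle libraries, and the highest spironolactone library reached the prednisolone range. Against vehicle, its log2 fold change was 0.73 ± 0.21 for prednisolone and 0.36 ± 0.22 for spironolactone. With 1 library left out, these ran from 0.55 to 0.96 and from 0.14 to 0.59.

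*Lama4*, the alpha chain of vessel basement membranes, had the opposite order of the drugs. It was at 4.84, 7.92, and 6.17 CPM in vehicle, at 17.0, 9.42, and 13.3 CPM in spironolactone, and at 10.5, 7.52, and 7.90 CPM in prednisolone libraries. Spironolactone lay above vehicle, and prednisolone overlapped both. Relative to vehicle, the difference in log2 units was 1.07 ± 0.23 for spironolactone and 0.46 ± 0.23 for prednisolone. With 1 library left out, these ran from 0.85 to 1.27 and from 0.29 to 0.65.

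*Lamb1*, a beta chain that pairs with either alpha chain, was at 7.94, 9.76, and 13.0 CPM in vehicle, at 17.8, 13.3, and 18.1 CPM in spironolactone, and at 14.2, 13.9, and 14 CPM in prednisolone libraries. Libraries of both drugs were above all vehicle libraries, and the drug groups overlapped each other. Its log2 fold change against vehicle was 0.68 ± 0.17 for spironolactone and 0.46 ± 0.17 for prednisolone. With 1 library left out, these ran from 0.53 to 0.89 and from 0.3 to 0.67.

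With these orders, the following ratios of laminin chain mRNAs were higher in every spironolactone library than in the other libraries. Vehicle and prednisolone libraries overlapped in each ratio. On the TPM scale, the ratio of *Lama4* to *Lama2* had a vehicle mean of 1.21 ± 0.0455, a spironolactone mean of 1.96 ± 0.256, and a prednisolone mean of 0.995 ± 0.191 (SD, n = 3). The lowest spironolactone ratio, 1.69, was above the highest ratio of the other groups, 1.25. The ratio of *Lamb1* to *Lamc1* was 0.224 in spironolactone, 0.139 in vehicle, and 0.138 in prednisolone. The sum of *Lama2* and *Lama4* was 0.107 of *Lamc1* in vehicle, 0.183 in spironolactone, and 0.117 in prednisolone. Other alpha chains are not in this sum, such as *Lama5*, another laminin alpha chain of vessels, which had means of 6.06, 14.1, and 7.37 CPM in vehicle, spironolactone, and prednisolone libraries.

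**Figure D2:**
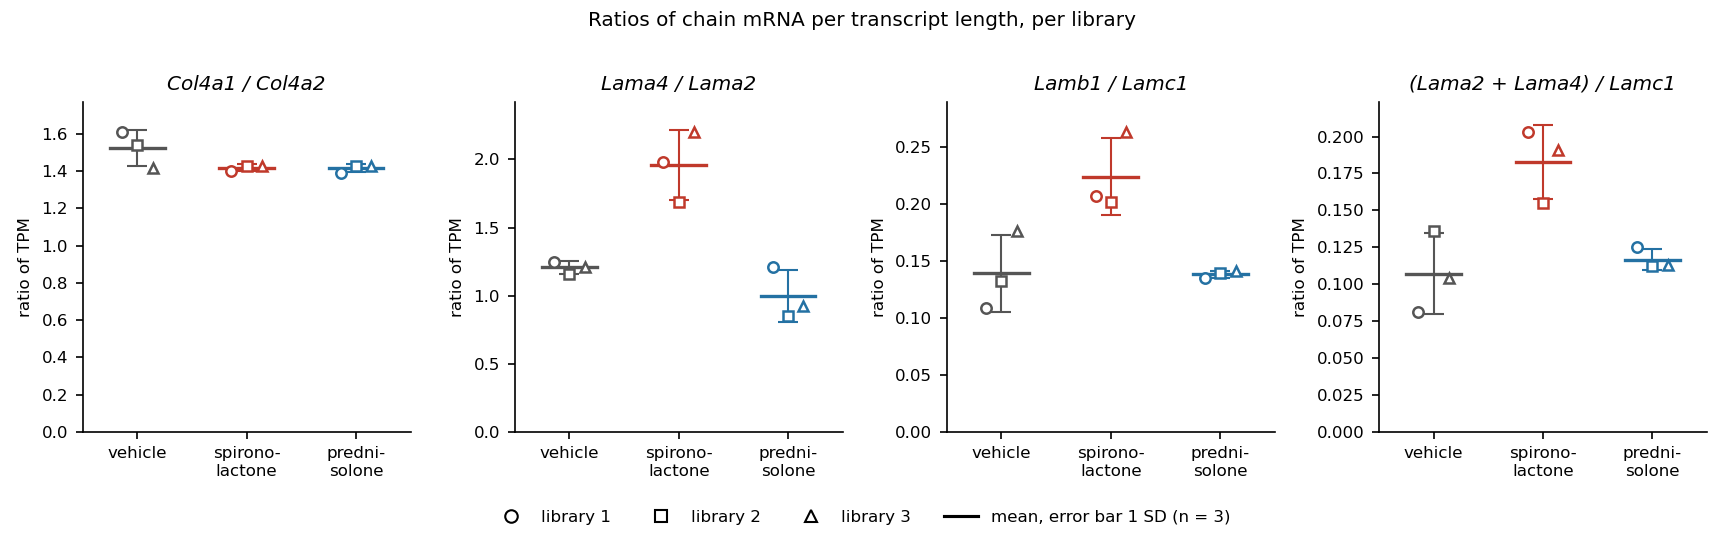
Ratios of TPM between chain mRNAs (linear axes from 0) in each library, with the mean (line) and SD (bar) of each group of 3. *Col4a1* to *Col4a2* stays between 1.39 and 1.61, whereas *Lama4* to *Lama2* lies higher in the 3 spironolactone libraries than in the 6 others.

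The linkers between the networks were highest in spironolactone. *Nid1*, which bridges laminin and type IV collagen, was at 17.9, 23.7, and 18.2 CPM in vehicle, at 44.3, 26.5, and 38.0 CPM in spironolactone, and at 28.2, 32.4, and 25.3 CPM in prednisolone libraries. Both drug groups were above every vehicle library and overlapped each other. Relative to vehicle, the log2 fold change was 0.86 ± 0.18 for spironolactone and 0.52 ± 0.18 for prednisolone. The other nidogen gene, *Nid2*, is not among the 10. It had means of 9.58, 10.6, and 8.52 CPM in vehicle, spironolactone, and prednisolone libraries. Its log2 fold change for spironolactone against vehicle was 0.14 ± 0.15, and these groups overlapped.

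*Hspg2*, whose product perlecan carries heparan sulfate and binds growth factors, was at 49.4, 71.3, and 64.3 CPM in vehicle, at 134.6, 82.4, and 88.5 CPM in spironolactone, and at 77.8, 68.4, and 77.7 CPM in prednisolone libraries. The lowest spironolactone library was 82.4 CPM and the highest of the 6 others 77.8 CPM, so that the groups were narrowly apart. The log2 fold change was 0.72 ± 0.18 for spironolactone against vehicle and 0.28 ± 0.18 for prednisolone against vehicle. With 1 library left out, these ran from 0.47 to 0.85 and from 0.14 to 0.39.

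As counts over the 10 genes, 8 were higher in every spironolactone library than in every vehicle library, against 6.99% of all genes tested; *Lama2* and *Lamc1* were the exceptions. Between prednisolone and vehicle, 4 of the 10 were higher without overlap (*Lama2*, *Lamb1*, *Lamc1*, and *Nid1*), against 10.4% of all genes. Between spironolactone and prednisolone, 5 were higher without overlap, against 15.1%, and *Lamc1* was lower, against 15.2%. The same 5 genes (*Col4a1*, *Col4a2*, *Col15a1*, *Hspg2*, and *Pxdn*) had all spironolactone libraries above all 6 others, against 3.65% of all genes. The median log2 fold change of the 10 genes was 0.80 for spironolactone against vehicle (0.00 over all genes tested), 0.37 for prednisolone against vehicle (−0.01 over all), and 0.53 for spironolactone against prednisolone (0.03 over all). The comparisons share their control libraries and are not independent.

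Fewer of the genes passed an adjusted p of 0.05 in the edgeR fit over all genes. Only *Col15a1* passed for spironolactone against vehicle, against 0.0181% of all genes tested, and only *Lamc1* for prednisolone against vehicle, against 1.76%. For spironolactone against prednisolone, 4 of the 10 passed, against 5.17% of all genes. *Col4a1*, *Col15a1*, and *Pxdn* were higher and *Lamc1* was lower. The count for spironolactone against vehicle was 8 with DESeq2, against 1.76% of all genes, and 0 with limma-voom, against 0.0% of all genes. Nothing is read from these counts, since the choice of the genes used the same libraries.

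**Figure D3:**
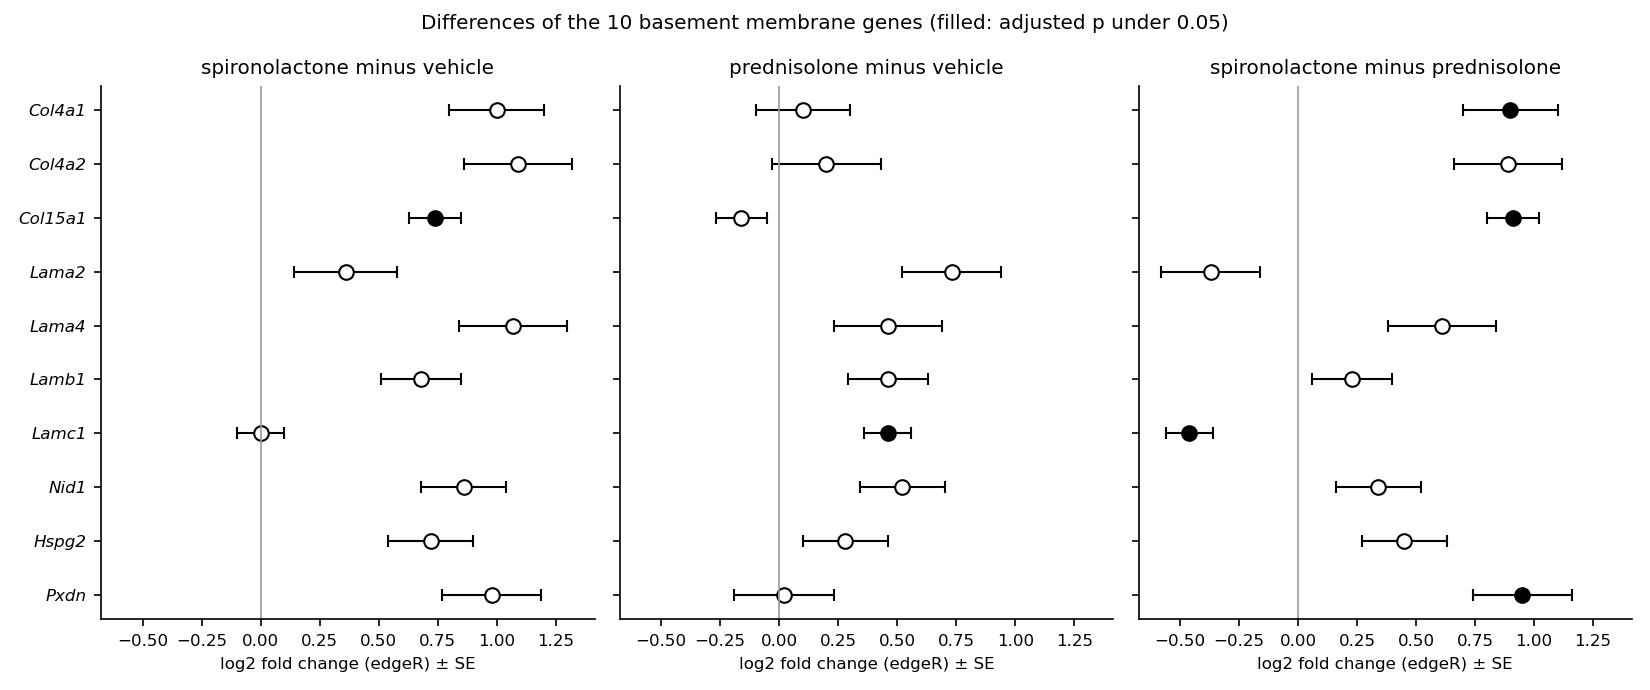
log2 fold changes of the 10 genes in the edgeR fit of all 9 libraries, with bars of 1 SE and filled points for an adjusted p under 0.05. Spironolactone against vehicle runs from 0.00 (*Lamc1*) to 1.09 (*Col4a2*), and for spironolactone against prednisolone *Lamc1* and *Lama2* lie below 0.

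Single libraries stood apart across the genes. Vehicle library 1 was the lowest vehicle library for all 10 genes and the lowest of all 9 for 8 of them. Spironolactone library 1 was the highest of all 9 for 7 genes, and spironolactone library 2 was the lowest of its group for all 10. Without spironolactone library 1, the median log2 fold change was 0.68 against vehicle and 0.29 against prednisolone. Without vehicle library 1, it was 0.73 for spironolactone and 0.22 for prednisolone, both against vehicle.

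Endothelial markers moved with the genes over the same libraries, and the other marker lists followed them less closely. The summed endothelial markers were 104.8, 151.6, and 145.7 CPM in vehicle, 283.6, 203.7, and 230.6 CPM in spironolactone, and 166.3, 134.8, and 133.3 CPM in prednisolone libraries. Spironolactone library 1 was the highest and vehicle library 1 the lowest, as for most of the basement membrane genes. All 12 endothelial markers had a log2 fold change above 0 for spironolactone against vehicle (median 1.15), and 0 passed the adjusted threshold of edgeR, whereas 10 were higher at an unadjusted p of 0.05, against 5.21% of all genes, and 8 passed with DESeq2, against 1.76%, and 0 with limma-voom. For spironolactone against prednisolone, 6 of the 12 passed (*Pecam1*, *Cdh5*, *Tie1*, *Esam*, *Egfl7*, and *Robo4*), all higher, against 2.38% of all genes. The ratio of the summed basement membrane genes to the summed endothelial markers was 2.32 ± 0.142 in spironolactone, 2.53 ± 0.138 in vehicle, and 2.83 ± 0.166 in prednisolone (SD, n = 3). The ratio to the summed fibro-adipogenic markers, mostly *Col1a1*, *Col1a2*, and *Col3a1*, had another order. It was 0.446 to 0.564 in spironolactone, 0.395 to 0.438 in vehicle, and 0.432 to 0.543 in prednisolone libraries. For the summed pericyte and smooth muscle markers, the ratio was 3.62 to 4.12, 3.16 to 4.02, and 2.75 to 3.29 in the same order.

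The fibro-adipogenic sum ran from 642.1 to 909.9 CPM in vehicle libraries, from 845.2 to 1228.0 CPM with spironolactone, and from 806.0 to 900.1 CPM with prednisolone. The 9 pericyte and smooth muscle markers summed to 70.0 to 119.5, 121.9 to 168.1, and 122.1 to 143.5 CPM, and the prednisolone sum included *Cspg4*, which was at 58.8 to 76.1 CPM there and at 16.4 to 28.3 CPM in the 6 other libraries. Myofiber markers summed to 192.7 to 291.1, 357.1 to 582.4, and 309.8 to 474.8 CPM. Schwann cell markers overlapped between all groups (94.6 to 115.4 CPM over all 9 libraries), as did satellite cell markers (9.14 to 22.8 CPM). Lymphocyte markers were at 0.764 to 5.67 CPM and were highest in spironolactone libraries, where they were 3.45 to 5.67 CPM. The part of any of these cell types in the levels of the basement membrane genes was not tested.

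**Figure D4:**
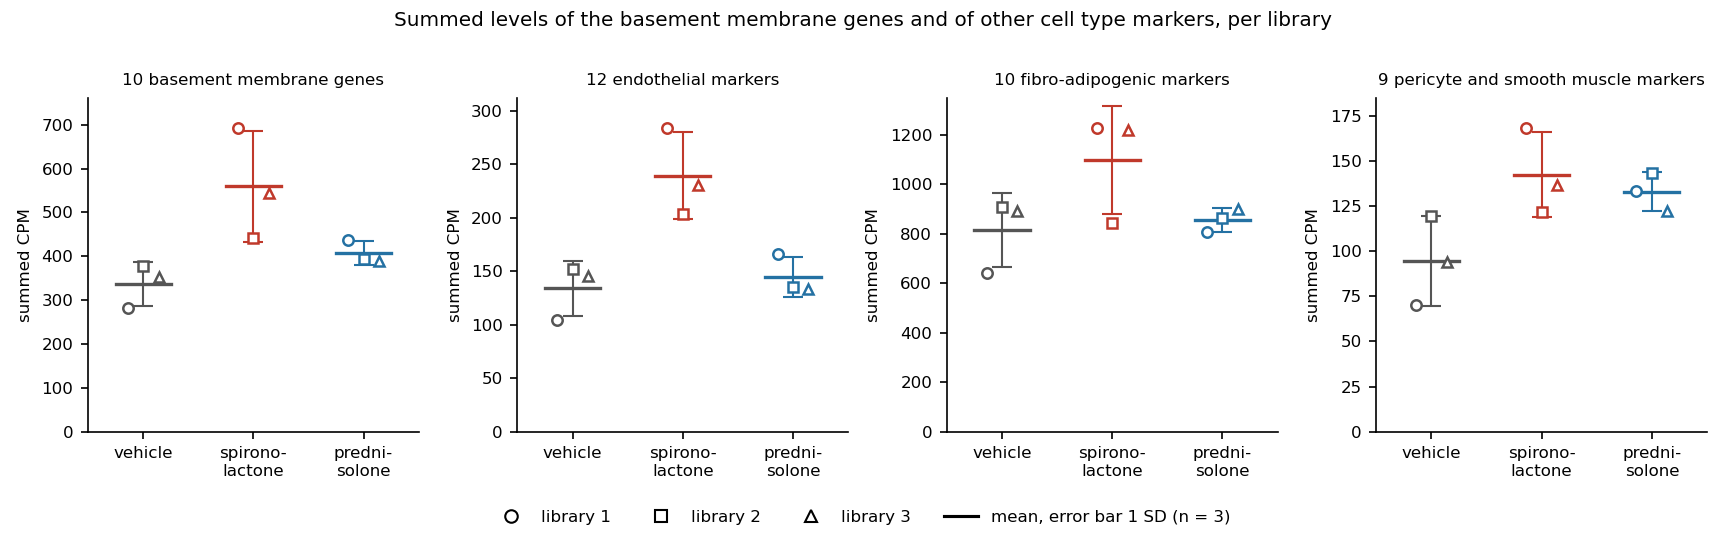
Summed TMM-normalized CPM (linear axes from 0) of the 10 basement membrane genes and of 3 marker lists in each library, with the mean (line) and SD (bar) of each group of 3. The basement membrane and endothelial sums both have their highest value in spironolactone library 1 and their lowest in vehicle library 1.

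The other genes of the pathway were tested. The rule that chose the 10 genes did not name them, but their lists were also written with earlier results of these data known, so that their p-values are not free of that choice. They were 71 genes in 4 lists, of which 64 passed the low-count filter. For spironolactone against vehicle, 0 of the 64 passed the adjusted threshold of edgeR (17 higher and 1 lower at an unadjusted p of 0.05, against 5.21% and 4.07% of all genes), whereas 10 passed with DESeq2, against 1.76% of all genes, and 0 with limma-voom. For prednisolone against vehicle, 2 rose, against 1.0% of all genes, and 0 fell (9 higher and 2 lower at an unadjusted p of 0.05, against 7.13% and 7.07% of all genes, and 0 lower with DESeq2 or limma-voom). For spironolactone against prednisolone, 6 were higher, against 2.38% of all genes, and 4 were lower, against 2.79%.

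Of 24 other basement membrane components, 17 were tested, and 16 of them had a log2 fold change above 0 for spironolactone against vehicle, with a median of 0.66. Over all genes tested, 8311 of 16618 were above 0, with a median of 0.0. Of the 17 in this comparison, 0 passed with edgeR, against 0.0181% of all genes, and 7 were higher at an unadjusted p of 0.05, against 5.21%. With DESeq2, 5 passed, against 1.76% of all genes, and with limma-voom 0 passed, against 0.0%. *Col18a1*, which encodes the vessel collagen from which endostatin is cut, rose with prednisolone. It was at 12.5, 19.6, and 21.1 CPM in vehicle, at 19.7, 15.9, and 21.3 CPM in spironolactone, and at 32, 38.4, and 37.9 CPM in prednisolone libraries. Its log2 fold change was 1.03 ± 0.18 for prednisolone against vehicle (edgeR adjusted p = 0.0128) and −0.93 ± 0.18 for spironolactone against prednisolone (edgeR adjusted p = 0.0122). *Col18a1* and its relative *Col15a1*, the other collagen of the same subfamily, were thus highest under different drugs. *Tinagl1*, a matrix protein that binds laminin and integrins, was at 17.7 to 20.8 CPM in spironolactone and at 6.74 to 10.6 CPM in prednisolone libraries, with a log2 fold change of 1.17 ± 0.21 (edgeR adjusted p = 0.00902). The most abundant genes of this list were *Sparc*, a collagen-binding matricellular protein, at 112.6 ± 29.5 CPM in vehicle, 190.4 ± 38.5 CPM in spironolactone, and 118.6 ± 2.66 CPM in prednisolone (SD, n = 3), and *Fbln2* at 23.8 ± 6.78, 38.8 ± 4.0, and 27.7 ± 2.44 CPM. Neither passed in any comparison in the edgeR fit of all 9 libraries after the low-count filter. For spironolactone against vehicle both passed with DESeq2 and with no low-count filter, and for spironolactone against prednisolone *Sparc* passed with DESeq2 and both passed with no filter and with edgeR on the 2 groups.

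All 15 cell surface receptor genes were tested, and the median log2 fold change was 0.29 for spironolactone against vehicle and 0.01 for prednisolone against vehicle. *Sdc1*, a heparan sulfate syndecan, was at 23.2, 34.5, and 39.1 CPM in vehicle, at 28.7, 26.1, and 30.1 CPM in spironolactone, and at 53.1, 64.2, and 52.8 CPM in prednisolone libraries. It rose with prednisolone by 0.81 ± 0.16 on the log2 scale (edgeR adjusted p = 0.0263) and was lower in spironolactone than in prednisolone, with a log2 fold change of −1.0 ± 0.16 (edgeR adjusted p = 0.00593). *Itgb1*, the beta chain of most laminin and collagen receptors, was at 406.7 to 410.4 CPM in spironolactone and at 504.4 to 520.7 CPM in prednisolone libraries (−0.33 ± 0.08, edgeR adjusted p = 0.0316). In vehicle libraries it was at 419.0 to 447.4 CPM. *Bcam*, a laminin receptor of endothelial and other cells, was at 14.7 to 16.5 CPM in spironolactone and at 7.78 to 9.60 CPM in prednisolone libraries (0.86 ± 0.17, edgeR adjusted p = 0.0125). In vehicle libraries it was at 5.78 to 9.55 CPM (spironolactone against vehicle 1.02 ± 0.17, edgeR adjusted p = 0.0636). *Itgb4*, a laminin-binding integrin chain, was at 4.27 to 5.22 and at 1.46 to 2.85 CPM (1.15 ± 0.27, edgeR adjusted p = 0.0272). The most abundant receptor gene, *Sdc3*, had means of 806.6, 797.8, and 752.4 CPM in vehicle, spironolactone, and prednisolone and did not pass.

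The genes that modify, fold, and crosslink collagen had median differences near 0. Over the 21 genes, all tested, the median log2 fold change was 0.10 for spironolactone against vehicle, 0.16 for prednisolone against vehicle, and 0.01 for spironolactone against prednisolone. Of these genes, 0 passed in either comparison with vehicle by edgeR, DESeq2, or limma-voom. By edgeR, 0.0181% of all genes passed for spironolactone and 1.76% for prednisolone, and by DESeq2 1.76% and 4.44%. At an unadjusted p of 0.05 in edgeR, 2 were higher and 0 lower for spironolactone, against 5.21% and 4.07% of all genes. For prednisolone, 3 were higher and 1 lower, against 7.13% and 7.07%. *P4hb*, a subunit of prolyl 4-hydroxylase, was the most abundant at 702.1 ± 12.5 CPM in vehicle, 677.1 ± 13.1 CPM in spironolactone, and 725.0 ± 33.8 CPM in prednisolone (SD, n = 3). *Colgalt1*, which adds galactose to collagen, was lower in spironolactone than in prednisolone, at 235.8 to 257.4 against 296.1 to 321.8 CPM (−0.33 ± 0.09, edgeR adjusted p = 0.0483), and was at 243.6 to 274.0 CPM in vehicle. *Loxl3*, a lysyl oxidase relative that crosslinks matrix, was higher in spironolactone than in prednisolone, at 14.1 to 22.6 against 9.63 to 11.1 CPM (0.73 ± 0.17, edgeR adjusted p = 0.0245), and was at 12.7 to 14.4 CPM in vehicle.

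Among 11 turnover genes, all tested, 2 were higher in spironolactone than in prednisolone, against 2.38% of all genes, and 0 were lower, against 2.79%. Against vehicle, 0 passed by edgeR, where 0.0181% of all genes passed for spironolactone and 1.76% for prednisolone. At an unadjusted p of 0.05, 3 were higher and 0 lower for spironolactone, against 5.21% and 4.07% of all genes. For prednisolone, 1 was higher and 1 lower, against 7.13% and 7.07%. With DESeq2, 3 were higher with spironolactone and 1 with prednisolone, both against vehicle, where 1.76% and 4.44% of all genes passed in either direction. With limma-voom, 0 passed against vehicle, where 0.0% and 1.58% of all genes passed. *Adamts1*, a matrix protease, was at 9.33 to 11.8 CPM in spironolactone and at 4.81 to 6.17 CPM in prednisolone libraries (0.96 ± 0.21, edgeR adjusted p = 0.0201). In vehicle libraries it was at 4.56 to 8.17 CPM (spironolactone against vehicle 0.78 ± 0.21, edgeR adjusted p = 0.187). *Timp3*, a matrix-bound protease inhibitor, was at 11.9 to 22.6 and at 8.11 to 10.9 CPM (0.85 ± 0.20, edgeR adjusted p = 0.0312). The most abundant genes were the lysosomal protease *Ctsb*, with means of 13162.4, 14159.9, and 12031.7 CPM, and *Timp2*, with means of 425.4, 451.6, and 477.5 CPM in vehicle, spironolactone, and prednisolone, and neither passed.

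The calls of the 4 lists changed with single libraries. Of the 10 calls between the drugs, 4, 2, and 4 held without prednisolone library 1, 2, and 3, and 4, 7, and 5 held without spironolactone library 1, 2, and 3, whereas 9 held without vehicle library 2 and 10 without vehicle library 1 or 3. Of the 2 calls of prednisolone against vehicle, 1 held without prednisolone library 1 or vehicle library 2 and 0 without prednisolone library 2 or 3. Without prednisolone library 2, the edgeR adjusted p of the calls between the drugs that were lost ran from 0.0516 (*Tinagl1*) to 0.175 (*Colgalt1*). Over the fits that each left out 1 of the 9 libraries, *Sdc1* passed between the drugs in 9 of 9, and *Bcam*, *Tinagl1*, and *Col18a1* in 8 of 9 each. *Adamts1*, *Itgb4*, and *Timp3* passed in 4 of 9 each, *Loxl3* in 5, *Itgb1* in 3, and *Colgalt1* in 2. *Bcam* was lost without prednisolone library 1 (edgeR adjusted p = 0.0675). Among the other settings, *Colgalt1* was lost with upper quartile normalization (edgeR adjusted p = 0.0607, over a range of 0.0032 to 0.0607), and *Sdc1* against vehicle with edgeR on the 2 groups (adjusted p = 0.0621, over a range of 3.3e-10 to 0.0621). Against vehicle, *Col18a1* passed in 7 of 9 and *Sdc1* in 5 of 9. The log2 fold changes kept their sign in all of these fits, with 0.48 (*Loxl3*) the lowest of those above 0.

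**Figure D5:**
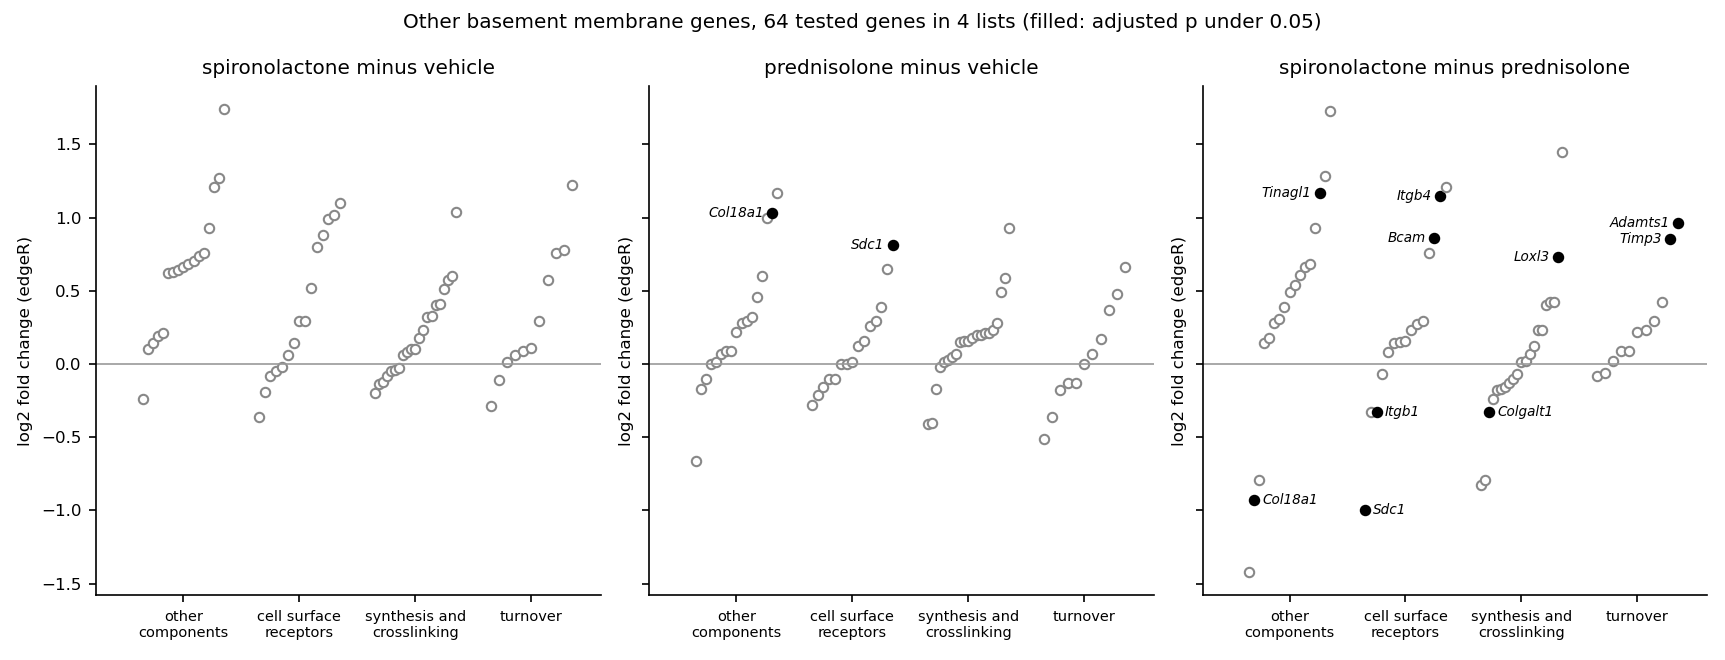
log2 fold changes (edgeR) of the 64 tested genes of the 4 lists, ordered by size within each list, with filled and named points for an adjusted p under 0.05. No point is filled for spironolactone against vehicle, 2 are filled for prednisolone against vehicle, and 10 for spironolactone against prednisolone.

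The genes whose pattern over the 9 libraries was most like the mean pattern of the 10 basement membrane genes were found by the root-mean-square difference of standardized log2 CPM. The smallest difference among other genes was that of *Podxl* (0.114), which encodes podocalyxin, a sialomucin of endothelial cells and podocytes, against a median of 1.341 over all genes tested. *Podxl* was at 8.93 ± 3.09 CPM in vehicle, 25.6 ± 11.1 CPM in spironolactone, and 14.2 ± 2.37 CPM in prednisolone (SD, n = 3). It was followed by *Galnt18* (0.216), *Efnb2* (0.251), *Ntrk2* (0.263), *Tmeff2* (0.273), *Fstl1* (0.281), *Hspa12b* (0.284), *C1s1* (0.286), *Ehd2* (0.287), and *Grrp1* (0.291). Of the basement membrane genes themselves, *Lama4* (0.189) and *Hspg2* (0.229) were closest to the mean pattern, and *Col15a1* (0.665), *Lama2* (0.798), and *Lamc1* (1.206) were farthest from it. Each of these genes is itself part of the mean pattern, so their differences are not comparable with those of other genes. The median difference was 0.496 for the endothelial markers, 0.654 for the pericyte and smooth muscle markers, 0.678 for the myofiber markers, 0.679 for the fibro-adipogenic markers, 1.052 for the Schwann cell markers, and 1.559 for the myeloid markers.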

How the data were processed

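RNA from sorted CD45+CD11b+ quadriceps cells was sequenced in 9 libraries, 3 per group. The authors aligned reads to mm39 with HISAT2 2.2.1 and counted them per gene with HTSeq 0.11.3, versions as named in the submitters' processing notes, and the deposited values are whole-number counts without normalization. Counting used gene annotation matched to the UCSC genome, whose release and the strand setting are not given in the sources used here. Deposited tables of the authors' DESeq2 1.32.0 fold changes, p-values, and mean counts were not used. Lines that name no gene (17.2% to 21.8% of counts) were left out.

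Count tests were run in R 4.3.3 with edgeR 4.0.16 (quasi-likelihood, robust=TRUE, TMM factors, a single two-sided fit to the 9 libraries), after filterByExpr (minimum count 10, minimum total 15), with Benjamini-Hochberg adjustment over 16618 genes and a threshold of 0.05. The SE is the log2 fold change divided by the square root of F. The biological coefficient of variation was 0.17 and TMM factors were 0.98 to 1.03. log2 CPM used a prior count of 2. Positions, exon lengths (40303 symbols, covering 91.0% or more of each library), and upstream windows came from GENCODE on GRCm39, which is the same build as mm39 but may be a different annotation from the one counted on. The windows hold the 250 bases before the canonical start and not the longer windows planned, which included transcribed bases. Some windows still hold annotated exon bases, as named above.

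The members and lists were chosen with earlier results of these data known, so members carry no p. Of the other lists, every gene past the threshold in any comparison (at most 12) and the 2 most abundant genes per list were named, and the 10 most alike genes. *Lama5*, *Lamb2*, and *Nid2* were named in addition, beside related members. Replicate numbers recur in the groups, but deviations of same-numbered libraries from their group means correlated by −0.038 to 0.151, so the numbers were not taken to pair libraries. Alternatives were DESeq2 1.42.0, limma-voom (limma 3.58.1), RLE, upper quartile, and library-total normalization, no filter, at least 10 counts in every library, a replicate block, edgeR on 2 groups, and leaving out each library. The fits were tested on simulated data. Figures used matplotlib 3.10.9.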

Additional observations from a re-analysis of the deposited data

How the results depend on the processing

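No value reversed its direction past the threshold under any alternative. The counts of genes past an adjusted p of 0.05 moved most. Of the 10 basement membrane genes, 1 passed for spironolactone against vehicle, and 8 passed with DESeq2, 8 with no low-count filter, 0 with limma-voom, 0 with edgeR on the 2 groups, and 0 to 6 with 1 library left out, against 0.0181%, 1.76%, 1.78%, 0.0%, 0.0249%, and 0.0% to 0.199% of all genes. The count was 0 without vehicle library 3, spironolactone library 1 or 3, or prednisolone library 1 or 2, and 6 without spironolactone library 2. For prednisolone against vehicle, 1 passed, and 2 passed with DESeq2, 3 with no filter, and 0 to 1 with 1 library left out, against 1.76%, 4.44%, 3.43%, and 0.402% to 4.83% of all genes, with 0 without vehicle library 2 or 3 or any prednisolone library. For spironolactone against prednisolone, 4 passed, and 7 passed with no filter and 1 to 5 with 1 library left out, against 5.17%, 6.52%, and 1.35% to 11.1% of all genes, with 1 without spironolactone library 3 or any prednisolone library. Of the other genes, 64 were tested, but 71 with no filter, 63 or 64 with edgeR on the 2 groups, and 64 or 66 with 1 library left out. Of these, 0 passed for spironolactone against vehicle, and 10 passed with DESeq2, 12 with no filter, and 0 to 1 with 1 library left out. For prednisolone against vehicle, 2 passed, and 6 passed with DESeq2, 6 with no filter, 1 with edgeR on the 2 groups, and 0 to 4 with 1 library left out. For spironolactone against prednisolone, 10 passed, and 17 passed with DESeq2, 19 with no filter, 16 with edgeR on the 2 groups, and 2 to 14 with 1 library left out, against 5.17%, 10.5%, 6.52%, 9.98%, and 1.35% to 11.1% of all genes. The shares of all genes for the comparisons with vehicle are those given above, and 1.5% for prednisolone against vehicle with edgeR on the 2 groups. With 1 library left out, the median log2 fold change of the 10 genes was 0.68 to 0.95 for spironolactone against vehicle, 0.22 to 0.41 for prednisolone against vehicle, and 0.29 to 0.69 for spironolactone against prednisolone, with 0.29 without spironolactone library 1. With a replicate block, 1, 1, and 3 of the 10 basement membrane genes and 1, 2, and 10 of the 64 other genes passed in the same order of comparisons, against 0.0481%, 2.02%, and 6.51% of all genes. The cause of these differences was not tested. The lowest count of any of the 10 genes in a library was 144, for *Lama2*.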
